A study of Mus musculus with 49 samples.

Results

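The vacuolar-type ATPase, or V-ATPase, is the proton pump that acidifies lysosomes, endosomes, the Golgi and synaptic vesicles. Expression of 10 of its genes was followed in differentiating mouse embryonic stem cells. The genes were taken by symbol from a table of 52550 gene rows: Atp6v1a, Atp6v1b2, Atp6v1c1 and Atp6v1h of the V1 sector, Atp6v0a1, Atp6v0b, Atp6v0c and Atp6v0d1 of the Vo sector, and the accessory genes Atp6ap1 and Atp6ap2. All 10 were in the table, and all 10 passed the filter on low counts in every fit. The cells were ES-D3, an established line, in the neural embryonic stem cell test, a culture assay for developmental neurotoxicity. After 3 days as embryoid bodies, cultures received fluoxetine (flx) at 2 µM or venlafaxine (vnx) at 90 µM, both antidepressants, until day 7 or day 13. The 7 groups of 7 libraries were flx_d7, vnx_d7, flx_d13 and vnx_d13, and the controls con_d7, con_d13 and con_d0. Controls received neither drug, and the labels name no solvent for them. All 7 groups came from this line, and the labels name no genetic change.

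The pump has a cytosolic V1 sector that hydrolyses ATP and a membrane-embedded Vo sector that carries protons, and the sectors can come apart and rejoin reversibly. In cells rich in lysosomes many of its genes are transcribed under the transcription factor TFEB and its relatives TFE3, MITF and TFEC, which bind an E-box (core CACGTG) known as the CLEAR element. In neurons the pump also fills synaptic vesicles, since the proton gradient drives the loading of transmitters.

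Promoters of 4 of the genes are shown because they differ in this core. The window of 250 bases before and 50 after the RefSeq start (build GRCm38.p6) was present for 7 of the 10 genes. Atp6v1b2, Atp6v1c1 and Atp6v1h had no entry. Below stand the 150 bases before and 20 after the start, read 5′ to 3′ on the strand of the gene. Capitals mark CACGTG, extended to GTCACGTG or TCACGTGA where the stretch holds the longer form. The Atp6v0b stretch is chr4:117887310-117887479 (minus strand), that of Atp6v0d1 is chr8:105566045-105566214 (minus), that of Atp6v1a is chr16:44139240-44139409 (minus) and that of Atp6ap2 is chrX:12587609-12587778 (plus).
Atp6v0b: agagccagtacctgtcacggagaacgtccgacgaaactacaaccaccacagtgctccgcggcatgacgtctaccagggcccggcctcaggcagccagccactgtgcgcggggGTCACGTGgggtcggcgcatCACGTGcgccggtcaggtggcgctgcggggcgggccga
Atp6v0d1: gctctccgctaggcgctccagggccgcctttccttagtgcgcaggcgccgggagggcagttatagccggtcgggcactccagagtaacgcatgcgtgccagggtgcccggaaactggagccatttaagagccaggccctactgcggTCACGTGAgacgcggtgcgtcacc
Atp6v1a: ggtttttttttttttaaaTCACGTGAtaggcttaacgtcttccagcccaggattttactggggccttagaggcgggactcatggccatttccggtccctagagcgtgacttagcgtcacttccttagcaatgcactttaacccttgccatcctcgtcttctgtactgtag
Atp6ap2: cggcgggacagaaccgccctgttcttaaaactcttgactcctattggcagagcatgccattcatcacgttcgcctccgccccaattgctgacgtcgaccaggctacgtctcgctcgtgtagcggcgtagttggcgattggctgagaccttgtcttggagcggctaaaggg

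The core CACGTG, which reads the same on both strands, occurred in the full windows of 3 of these 7 genes, against 7.15% of all 32851 windows in the table. Atp6v0c had several windows and was counted as 1 gene. Of 12 other subunit genes with a window, 1 held the core. Atp6v0b held it at 2 places, 36 and 18 bases before its start. The first of these was extended to GTCACGTG, which 2.25% of windows hold on either strand. Atp6v0d1 held TCACGTGA across its start and Atp6v1a held it with the core 131 bases before the start, and 0.974% of windows hold this longer form. The windows of Atp6ap1, Atp6ap2, Atp6v0a1 and Atp6v0c had no CACGTG. These are matches of letters, and binding was not measured. The RefSeq starts of Atp6v0a1 and Atp6v1a lie inside the spans that GENCODE vM21 gives these genes, so the bases before their GENCODE starts were not searched.

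Libraries held 14059811 to 29225775 counts, and 9 of the 10 genes had 577 to 9057 counts in each. Atp6v0c was the exception, with 58 to 152 counts per library. Levels are given as CPM (counts as parts of the library total scaled by TMM factors), as mean ± SD over 7 libraries or as lowest, median and highest. Genes were called at an adjusted p under 0.05 in the quasi-likelihood test of edgeR, adjusted by Benjamini-Hochberg over all genes tested, and log2 fold changes carry standard errors. The labels do not say whether the 7 libraries of a group were separate differentiations, so p-values measure the spread between these libraries. In each of the 6 groups of days 7 and 13, 1 library named in earlier results as far from its group was left out as an alternative. Over genes of at least 10 CPM, 5 of these 6 were the farthest from the median of the others of their group, at a root mean square difference of 0.183 to 0.279 on the log2 scale with the next library at 0.154 to 0.269. The vnx_d7 one was the next to farthest at 0.197. In such bulk RNA, fewer cells of a type and less RNA per cell cannot be told apart. The labelled change of cell type was present in the markers: the summed CPM of 5 pluripotency genes had a median of 4851 in con_d0, 55.2 in con_d7 and 104 in con_d13, and that of 6 neuronal genes had medians of 90.3, 844 and 4142. Of the pluripotency genes Esrrb rose most after day 7, from a mean of 9.27 CPM in con_d7 to 55.6 CPM in con_d13. Pou5f1, Nanog and Dppa5a also had higher means in con_d13, and Zfp42 did not (8.28 CPM in con_d7 and 8.11 in con_d13).

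Without drug, the genes of the pump did not move as one. Between day 0 and day 7 the V1 genes and Atp6v0d1 fell while Atp6v0a1 and Atp6ap1 rose, and between day 7 and day 13 every gene but Atp6v0c rose. Of the 10 genes 2 rose and 5 fell in con_d7 against con_d0, against a background of 88.8% of genes called, 45.3% as higher and 43.4% as lower. In con_d13 against con_d7, 9 rose and 0 fell, where 83% of genes were called and 42.1% were called higher. In con_d13 against con_d0, 7 were higher and 2 lower, where 93.4% of genes were called, 48.3% higher and 45.1% lower. The median log2 fold change of the 10 was -0.245 in the first interval and 0.665 in the second, against 0.031 and 0.007 over all genes tested.

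The V1 genes fell and then recovered to differing degrees. Atp6v1a encodes the catalytic A subunit, where ATP is hydrolysed, and spans chr16:44085402-44139705 on the minus strand (GENCODE vM21, build GRCm38). Its level was 280 ± 5.09 CPM on day 0, 176 ± 3.09 on day 7 and 271 ± 15.5 on day 13. The first change was -0.66 ± 0.0307 (adjusted p = 1.8e-16) and the second was 0.64 ± 0.0306 (adjusted p = 7.58e-16). Day 7 libraries lay below all others at 171 to 179 CPM, while the ranges of day 13 and day 0 overlapped (251 to 292 against 274 to 286 CPM), and the log2 difference of -0.03 ± 0.0304 did not pass (adjusted p = 0.358). Atp6v1b2, on chromosome 8 (69088646 to 69113711, plus strand), encodes the B isoform found in most tissues. It stood at 267, 217 and 296 CPM on days 0, 7 and 13, a fall of 0.29 ± 0.0325 and then a rise of 0.45 ± 0.0324.

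Atp6v1c1, on chromosome 15 (38661933 to 38692446, plus strand in vM21), encodes subunit C, part of the peripheral stalk that holds V1 to Vo. It had the largest fall of the 10, to 61.1 ± 2.22 CPM in con_d7 against 109 ± 2.81 in con_d0, a log2 change of -0.82 ± 0.0315 (adjusted p = 3.43e-18). It was still lower in con_d13 than in con_d0 (86.7 ± 4.04 against 109 ± 2.81 CPM, -0.31 ± 0.031), and these groups did not overlap. Atp6v1h, which encodes subunit H, a regulator that silences free V1 in yeast, lies on chromosome 1 (5070018 to 5162529, plus strand). It had 105, 88.6 and 132 CPM on the 3 days, a fall of 0.24 ± 0.0356 followed by a rise of 0.58 ± 0.0352.

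Among the Vo genes Atp6v0a1 moved most. It encodes the a1 isoform of the subunit that forms the path of the protons and directs the pump to its membrane, and a1 is the isoform of synaptic vesicles. The gene spans chr11:101009452-101063719 on the plus strand. Its level was 50.7 ± 2.84 CPM on day 0, 129 ± 5.67 on day 7 and 255 ± 13.2 on day 13. No library of one day overlapped another day, and con_d13 stood 5.03-fold above con_d0 (2.34 ± 0.0402, adjusted p = 1.12e-25). Atp6v0d1 encodes subunit d, which joins the proteolipid ring to the rotor, and lies on chromosome 8 (105524465 to 105566047, minus strand). It fell to 88 ± 4 CPM in con_d7, against 109 ± 2.54 in con_d0, and reached 161 ± 3.37 in con_d13 (0.88 ± 0.0282 above con_d7).

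The proteolipid genes Atp6v0b and Atp6v0c encode the rotating ring that carries protons. Atp6v0b, on chromosome 4 (117884326 to 117887333, minus strand), had 83, 84.4 and 152 CPM on days 0, 7 and 13. Its first interval did not pass (0.03 ± 0.0386, adjusted p = 0.443, but 0.0197 with no filter) and its second gave 0.86 ± 0.0378 (adjusted p = 1.22e-16). An antisense gene, Gm12841, covers 11.8% of its exon length, and the labels do not state how strand was used in the counting. Gm12841 itself averaged 0.297 CPM. Atp6v0c, on chromosome 17 (24163866 to 24169702, minus strand), had 5.85 ± 0.751 CPM in con_d0, 4.91 ± 0.937 in con_d7 and 4.63 ± 0.697 in con_d13, far below its partners. Of its 50-base transcript stretches 10.8% also occur in other annotated transcripts, nearly all in the pseudogene Atp6v0c-ps2. The handling of reads that match several genes was not given in the sources used here, and its level is therefore uncertain. It passed in con_d13 against con_d0 (-0.33 ± 0.118, adjusted p = 0.0121). In con_d7 against con_d0 it missed (-0.25 ± 0.118, adjusted p = 0.0542), but was called in a fit of all 49 libraries and without the 6 libraries set apart (adjusted p = 0.0328 and 0.00643).

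Both accessory genes ended higher. Atp6ap1 encodes Ac45, an accessory subunit needed for assembly and sorting of the pump, and lies on the X chromosome (74297097 to 74304721, plus strand). It rose in both intervals, with 76.5 ± 1.36 CPM on day 0, 125 ± 3.35 on day 7 and 201 ± 4.3 on day 13, and no ranges overlapped. Atp6ap2 encodes the (pro)renin receptor, which also serves as a subunit of the pump, and lies on the same chromosome (12587801 to 12617049, plus strand). It did not pass in the first interval, with 82.6 ± 1.77 CPM in con_d7 and 78.1 ± 3.24 in con_d0 (0.09 ± 0.0526, adjusted p = 0.123). With no count filter, and in a fit of these groups alone, Atp6ap2 was called higher (adjusted p = 0.00566 and 0.00103). It then rose by 0.71 ± 0.0514 to 135 ± 15.1 CPM in con_d13.

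**Figure D1:**
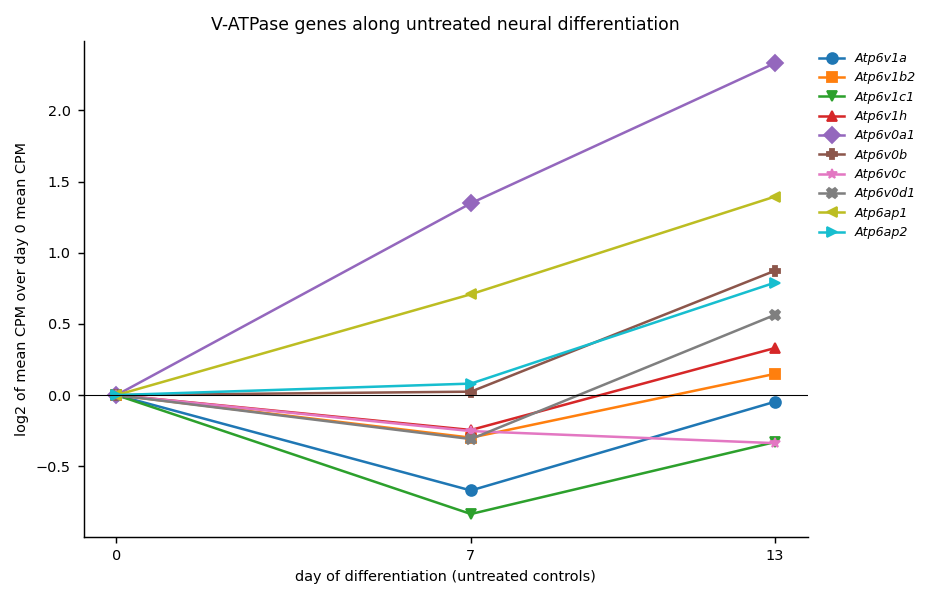
Mean CPM of each gene in untreated controls on days 0, 7 and 13 (x axis), as log2 of its ratio to the day 0 mean (y axis), each point the mean of 7 libraries. Atp6v0a1 and Atp6ap1 climb at every step, the V1 genes dip on day 7, and Atp6v0c ends lowest with Atp6v1c1.

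Per kilobase of exons, the order of levels changed with the day. Lengths joined all annotated exons of a gene, whichever transcripts were expressed, so the order between genes depends on the annotation. Atp6v1h has 9746 such bases and Atp6v0d1 has 1793, at 105 and 109 CPM on day 0. On day 0 Atp6v0d1 led at 60.7 CPM per kb, followed by Atp6v1b2 at 50.4, Atp6v1a at 46.3, Atp6v0b at 40.4, Atp6ap2 at 29.8 and Atp6ap1 at 25.3. Below these stood Atp6v1c1 at 19.4, Atp6v1h at 10.8, Atp6v0a1 at 7.73 and Atp6v0c at 1.73, and no neighbours in this order had overlapping ranges. In con_d7 Atp6v0d1 led at 49.1 CPM per kb, and Atp6ap1 (41.5), Atp6v0b (41.1) and Atp6v1b2 (41.0) could not be ordered, since their ranges overlapped. In con_d13 Atp6v0d1 still led at 89.8 CPM per kb, but the accessory gene Atp6ap1 (66.5) and Atp6v0b (74.2) now stood above both V1 core genes. Atp6v1b2 (55.8), Atp6ap2 (51.5), Atp6v1a (44.9) and Atp6v0a1 (38.9) followed in that order, with the ranges of neighbours overlapping. The last places were held by Atp6v1c1 (15.5), Atp6v1h (13.6) and Atp6v0c (1.37).

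The other subunit genes include alternative isoforms, whose RNA levels are given here. Of 16 further subunit genes 10 were tested, and 6 were too low to be tested. In con_d7 against con_d0 4 of the 10 rose and 6 fell, where 88.8% of all genes were called. In con_d13 against con_d7 6 rose and 2 fell, where 83% of all genes were called. Isoform genes known to be enriched in brain rose most in the second interval: Atp6v1g2, the neuronal G subunit gene, had 1.34, 5.43 and 34.3 CPM on days 0, 7 and 13 (2.67 ± 0.0884 in the second interval). Atp6v0e2 had 15.2, 37.8 and 128 CPM (1.77 ± 0.0397), while its counterpart Atp6v0e fell by 0.20 in the same interval to 38 CPM. Per kilobase, Atp6v0e2 stood below Atp6v0e on day 0 (6.38 against 18.2) and above it on day 7 (15.9 against 11.8). In CPM Atp6v0e was still the higher on day 7 (43.8 against 37.8). The day 7 order thus rests on the exon lengths used, 3712 bases for Atp6v0e and 2381 for Atp6v0e2. The vM21 coordinates of Atp6v0e also differ from those given with the counts. Atp6v1g2 stayed below the general isoform gene Atp6v1g1 on day 13 (13.7 against 87.3 CPM per kb).

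Among the a-subunit genes, Atp6v0a1 and Atp6v0a2 were close on day 0, at 7.73 ± 0.434 and 7.14 ± 0.317 CPM per kb. By day 13 Atp6v0a1 stood at 38.9 and Atp6v0a2, a Golgi and endosome isoform, at 10.5 CPM per kb. Tcirg1, the a3 isoform gene of osteoclasts and lysosomes, fell by 0.34 between day 7 and day 13 and had 16 CPM in con_d13. Atp6v0a4, a kidney isoform gene, had 6.65 CPM in con_d0 and 0.652 in con_d7 (-3.32). It overlaps D630045J12Rik over 5.21% of its exon length on the same strand, and D630045J12Rik averaged 83.6 CPM. The part of the Atp6v0a4 counts that came from this overlap was not tested. The tissue-restricted genes Atp6v0d2, Atp6v1b1, Atp6v1c2, Atp6v1e2, Atp6v1g3 and Atp6ap1l averaged under 1 CPM in each control group.

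**Figure D2:**
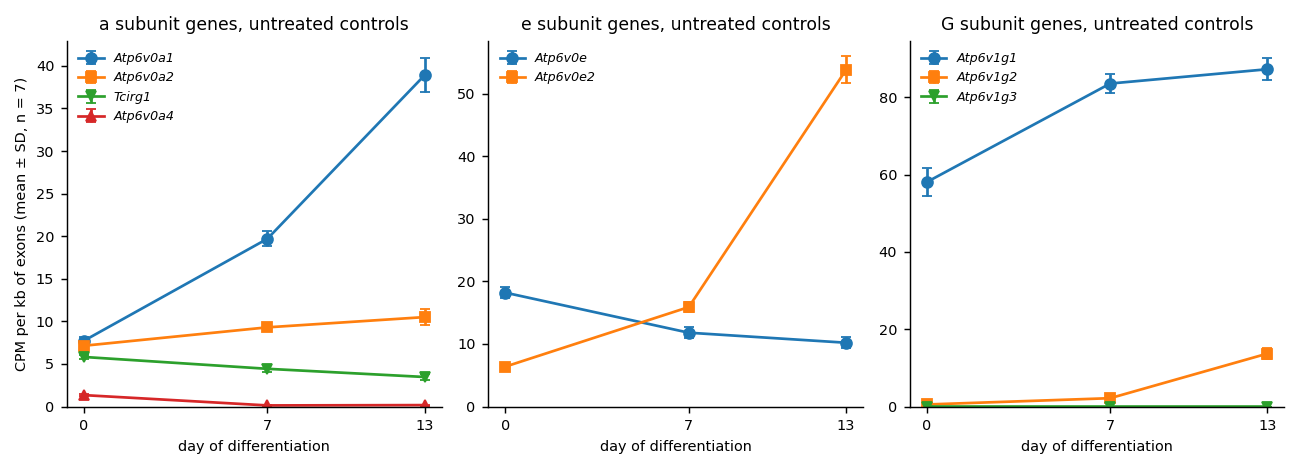
CPM per kilobase of exons (y axis; mean ± SD, 7 libraries) of the genes that encode alternative a, e and G subunits, by day in untreated controls (x axis). Atp6v0a1 and Atp6v0e2 rise to 38.9 and 53.8 by day 13, while Atp6v1g1 stays above Atp6v1g2.

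Most of the pump genes were higher with venlafaxine on day 7. Of the 10, 8 were called higher and 0 lower in vnx_d7 against con_d7, where 3.84% of 15601 genes were called and 1.9% were called higher. All 10 stood above 0, with a median log2 fold change of 0.195 against 0.002 over all genes. The changes were small, between 0.14 and 0.34 on the log2 scale. Both accessory genes, 3 of 4 V1 genes and 3 of 4 Vo genes were among those called.

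The Vo gene Atp6v0b, whose promoter held the core at 2 places, had the largest change. It had 98.9, 106 and 120 CPM (lowest, median and highest) in vnx_d7, against 78, 84.1 and 94.9 in con_d7. All venlafaxine libraries lay above all controls, and the log2 fold change was 0.34 ± 0.0546 (adjusted p = 0.000548). Atp6v0d1 had 98.5, 100 and 106 CPM in vnx_d7, against 83, 85.7 and 93.1 in con_d7, again without overlap (0.21 ± 0.0375, adjusted p = 0.00136). Atp6v0a1 had 136, 147 and 154 CPM in vnx_d7, against 123, 128 and 140 in con_d7, and the groups overlapped (0.17 ± 0.0404, adjusted p = 0.017). In a fit of all 49 libraries Atp6v0a1 was not called (adjusted p = 0.0889). Atp6v0c averaged 5.94 ± 0.95 CPM in vnx_d7 and 4.91 ± 0.937 in con_d7 and was not called (0.27 ± 0.115, adjusted p = 0.213).

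Of the accessory genes, Atp6ap2 had the smallest p of the 10. It had 95.4, 101 and 106 CPM in vnx_d7, against 80.7, 81.7 and 85.7 in con_d7, and every treated library was above every control (0.29 ± 0.0317, adjusted p = 2.7e-06). Its promoter window had no CACGTG. Atp6ap1 had 132, 139 and 144 CPM in vnx_d7, against 120, 124 and 131 in con_d7, also without overlap (0.14 ± 0.0295, adjusted p = 0.00491).

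In the V1 sector Atp6v1c1 had 66, 69.5 and 74.3 CPM in vnx_d7, against 57.3, 61.2 and 64.4 in con_d7 (0.19 ± 0.0341, adjusted p = 0.00121). Atp6v1b2 had 231, 240 and 266 CPM in vnx_d7, against 212, 215 and 229 in con_d7 (0.18 ± 0.0374, adjusted p = 0.00471). Neither gene's groups overlapped. Atp6v1a had 176, 189 and 209 CPM in vnx_d7, against 171, 176 and 179 in con_d7, with the 7 treated libraries above the control median and overlapping ranges. Its change of 0.14 ± 0.037 passed narrowly (adjusted p = 0.0298) and missed the threshold with no filter, with the 2 groups alone and without the 6 libraries set apart (adjusted p = 0.0748, 0.0546 and 0.125). Atp6v1h spread widely in vnx_d7, with 87, 100 and 127 CPM against 84, 88 and 94 in con_d7, and just missed (0.20 ± 0.0585, adjusted p = 0.0558). DESeq2 called it (adjusted p = 0.0251).

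Fluoxetine on day 7 gave smaller differences. Of the 10 genes 1, Atp6ap2, was called higher in flx_d7 against con_d7, where 0.0513% of genes were called (8 of 15601) and 0.032% were called higher. It had 89.7, 94.1 and 96 CPM in flx_d7, against 80.7, 81.7 and 85.7 in con_d7, and the groups did not overlap (0.18 ± 0.0316, adjusted p = 0.0227). Its call was lost with no filter, with all 49 libraries fitted and without the 6 libraries set apart (adjusted p = 0.0961, 0.133 and 0.073). Atp6ap1 had 134, 138 and 146 CPM in flx_d7, against 120, 124 and 131 in con_d7, also without overlap, and missed the threshold (0.14 ± 0.0294, adjusted p = 0.0574). DESeq2 called both, and with all 49 libraries fitted Atp6ap1 was called (adjusted p = 0.0153). All 10 genes had values above 0, from 0.03 to 0.18 with a median of 0.115, and 5 had an unadjusted p under 0.05, against 9.13% of all genes.

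The values for both drugs stand beside the same 7 controls of a day, so their likeness cannot be read as independent. For the Vo gene Atp6v0b the log2 values were 0.17 ± 0.0545 for fluoxetine and 0.34 ± 0.0546 for venlafaxine, and for Atp6v0d1 they were 0.06 ± 0.0375 and 0.21 ± 0.0375. For Atp6ap1 they were equal at 0.14. Set directly against each other at these unequal doses, flx_d7 and vnx_d7 differed in 0 of the 10 genes in edgeR, where 0.147% of genes were called. Unadjusted p was under 0.05 for 6 genes, against 8.38% of all genes tested, and DESeq2 called Atp6ap2 and Atp6v0d1 lower in flx_d7.

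**Figure D3:**
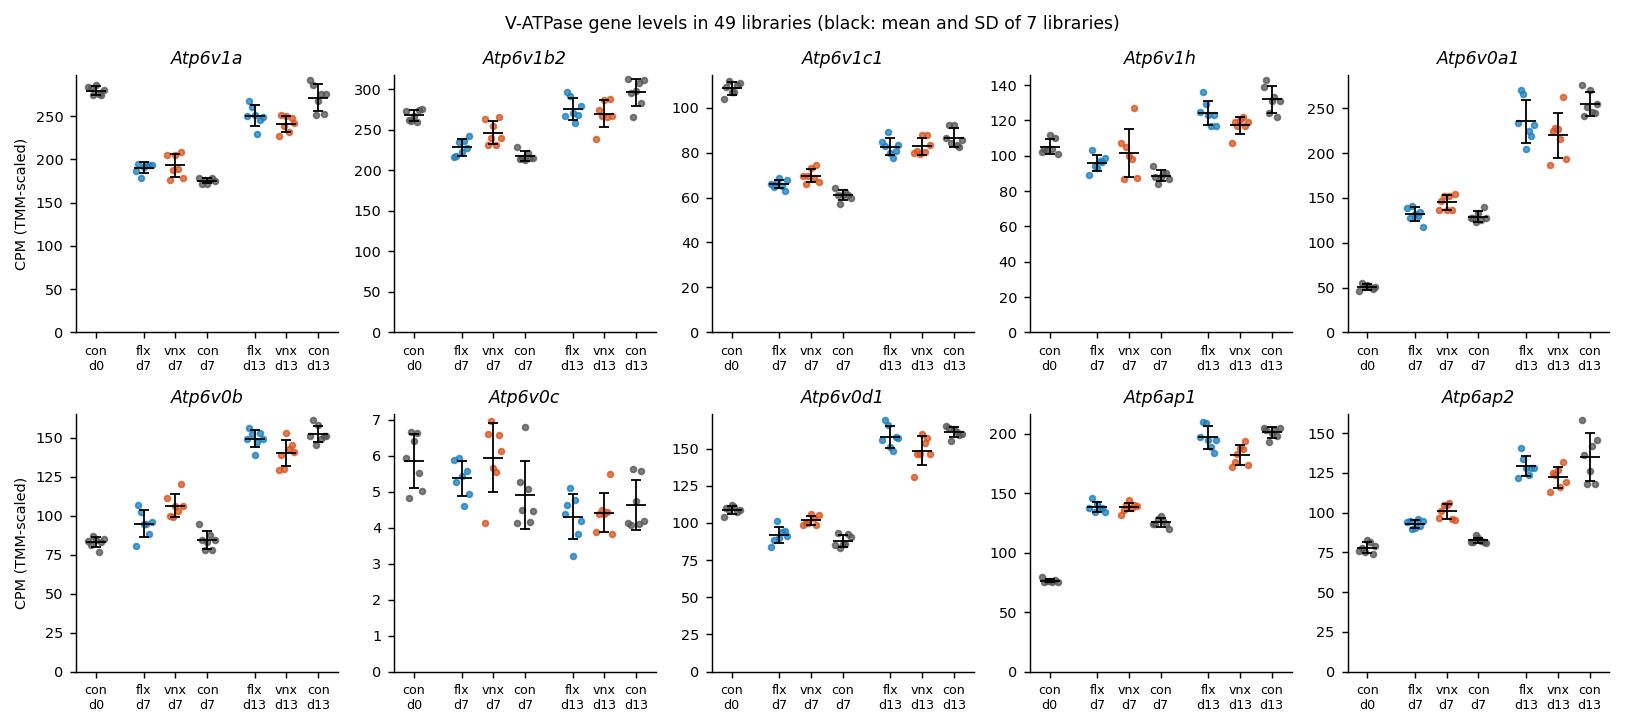
CPM (y axes, from 0) of the 10 genes in each of 49 libraries, by drug (flx, vnx, con) and day (d0, d7, d13) along the x axes; points are libraries and black marks the mean and SD of 7. On day 7 the venlafaxine libraries of Atp6v0b, Atp6v0d1, Atp6v1b2, Atp6v1c1, Atp6ap1 and Atp6ap2 lie above all day 7 controls, and on day 13 all groups of a gene overlap.

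On day 13 the direction under venlafaxine was the opposite. In vnx_d13 against con_d13, 7 of the 10 genes were called lower and 0 higher, where 22.9% of 16397 genes were called and 11.3% were called lower. All 10 values lay below 0 with a median of -0.13, against -0.005 over all genes; without the 6 libraries set apart Atp6v0c stood at 0.02. The falls were small, 0.11 to 0.21 on the log2 scale, and the ranges of the groups overlapped for all 10 genes. With no count filter, and with the 2 groups fitted alone, 4 were called, and Atp6v0b, Atp6v0d1 and Atp6v1b2 were not. With the replicate number as a block 0 were called, and the labels do not say what these numbers stand for.

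The V1 gene Atp6v1h had 107, 119 and 122 CPM in vnx_d13, against 122, 131 and 143 in con_d13 (-0.16 ± 0.0385, adjusted p = 0.0115). Atp6v1a had 227, 242 and 251 CPM in vnx_d13, against 251, 275 and 292 in con_d13 (-0.16 ± 0.0377, adjusted p = 0.0111). In both genes the groups met only at their edges, and the 7 treated libraries were below the control median. Atp6v1b2 averaged 270 ± 16.5 CPM in vnx_d13 and 296 ± 16.8 in con_d13 (-0.13 ± 0.0421, adjusted p = 0.0387). Atp6v1c1 did not pass, at 82.7 ± 3.69 CPM in vnx_d13 and 86.7 ± 4.04 in con_d13 (adjusted p = 0.22).

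Among the Vo and accessory genes Atp6v0a1 had the largest difference. It had 187, 224 and 262 CPM in vnx_d13, against 241, 251 and 276 in con_d13 (-0.21 ± 0.0647, adjusted p = 0.0291). Its venlafaxine libraries were widely spread, 6 of 7 of them below the control median. Atp6v0b averaged 140 ± 8.34 CPM in vnx_d13 and 152 ± 5.35 in con_d13 (-0.11 ± 0.0341, adjusted p = 0.0268). Atp6v0d1 averaged 148 ± 9.7 CPM in vnx_d13 and 161 ± 3.37 in con_d13 (-0.11 ± 0.0358, adjusted p = 0.0376), and missed without the 6 libraries set apart (adjusted p = 0.0541). Atp6ap1 had 172, 183 and 194 CPM in vnx_d13, against 193, 203 and 205 in con_d13, with the groups meeting at the edge (-0.14 ± 0.0312, adjusted p = 0.0108). Atp6ap2 averaged 122 ± 6.67 CPM in vnx_d13 and 135 ± 15.1 in con_d13 and missed (adjusted p = 0.0833), and Atp6v0c stood at 4.42 and 4.63 CPM (adjusted p = 0.695).

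For fluoxetine on day 13, edgeR called 0 of the 10 genes in flx_d13 against con_d13, where 0.116% of genes were called, and DESeq2 also called 0. Unadjusted p was under 0.05 for Atp6v1a and Atp6v1b2, against 14.1% of all genes. The values ran from -0.10 to -0.01 with a median of -0.064. Without flx_d13_5, flx_d13_6 and flx_d13_7, set apart in earlier results, Atp6ap1 and Atp6v0d1 stood at 0.02 each, and Atp6v0c stood at 0.02 without the 6 libraries. Atp6v1a had 229, 250 and 267 CPM in flx_d13, against 251, 275 and 292 in con_d13 (-0.10 ± 0.0377, adjusted p = 0.193). Set against vnx_d13, flx_d13 was higher in 1 of the 10 genes, where 12.1% of genes were called and 5.14% were called higher. This was Atp6ap1, with 197 ± 9.53 CPM in flx_d13 and 182 ± 8.04 in vnx_d13 (0.12 ± 0.0312, adjusted p = 0.023), and it was not called with no filter or without the 6 libraries (adjusted p = 0.0598 and 0.0829).

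**Figure D4:**
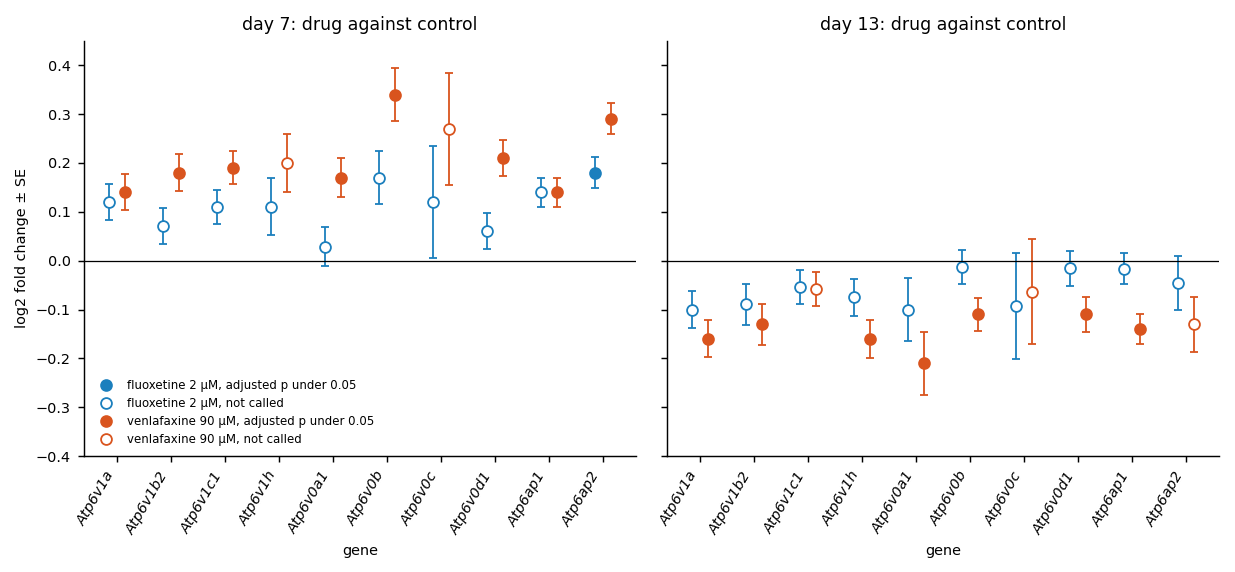
Log2 fold change ± SE (y axis) of each gene (x axis) in drug against control on day 7 and day 13, with filled points for adjusted p under 0.05. Venlafaxine values run from 0.14 to 0.34 on day 7 and from -0.21 to -0.06 on day 13, and those of fluoxetine lie nearer to 0 except for Atp6ap1 on day 7, where they are equal, and Atp6v0c on day 13.

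The change of direction with time was itself tested, as the drug effect on day 13 minus that on day 7 over 42 libraries. For venlafaxine 9 of the 10 genes were called lower, where 12.4% of 16964 genes were called and 4.89% were called lower. The differences were -0.44 ± 0.0674 for Atp6v0b (adjusted p = 5.54e-05), -0.42 ± 0.0643 for Atp6ap2 (5.91e-05) and -0.27 ± 0.0405 for Atp6ap1 (3.82e-05), and the median of the 10 was -0.32 against 0.005 over all genes. All 9 were called under every alternative run. Atp6v0c stood at -0.33 and was not called (adjusted p = 0.169). For fluoxetine edgeR called 0 of 10, where 0.277% of genes were called. All 10 values were below 0 with a median of -0.17, and 7 had an unadjusted p under 0.05, against 13% of all genes. DESeq2 called 3 of them, Atp6v1a, Atp6ap1 and Atp6v1c1.

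Cell type markers differed in the same samples. The summed CPM of 6 neuronal genes had a lowest, median and highest value of 2765, 3600 and 4041 in vnx_d13, against 3541, 4142 and 4622 in con_d13. That of 5 astrocyte genes was 466, 546 and 622 in vnx_d13, against 394, 477 and 504 in con_d13. That of 5 oligodendrocyte lineage genes was 603, 689 and 945 in vnx_d13, against 339, 589 and 722 in con_d13. The sums of 5 pluripotent stem cell genes were 126, 164 and 223 in vnx_d13, against 78.7, 104 and 204 in con_d13. Those of 4 endothelial genes were 85.5, 104 and 145 in vnx_d13, against 55.8, 66.3 and 129 in con_d13. The median was thus higher in vnx_d13 for each of these lists but the neuronal one, and the groups overlapped in each of them. A lower neuronal median was not particular to vnx_d13, since the neuronal sums in flx_d13 were 3414, 3540 and 4326. The other medians in flx_d13 were 513 for astrocyte, 619 for oligodendrocyte lineage, 105 for pluripotent stem cell and 74.5 for endothelial genes. Most of the astrocyte sum was Slc1a3, which averaged 404 CPM in vnx_d13, against 357 CPM in con_d13. Aldh1l1, Aqp4 and S100b also had higher means in vnx_d13. Gfap went the other way, with 10.3 CPM in vnx_d13, against 17.9 CPM in con_d13.

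On day 7 the neuronal sums were 767, 911 and 970 in vnx_d7, against 638, 844 and 916 in con_d7. The sums of the 4 endothelial genes did not overlap, with 152, 161 and 174 in vnx_d7, against 198, 212 and 227 in con_d7. Neither did those of the oligodendrocyte lineage, with 197, 220 and 232 in vnx_d7, against 237, 259 and 306 in con_d7. In flx_d7 the endothelial sums were 175, 192 and 205. Most of the endothelial sum was Flt1, a VEGF receptor, which averaged 114 CPM in vnx_d7 and 141 CPM in flx_d7, against 172 CPM in con_d7. The other endothelial genes had higher means than con_d7 in both drug groups. Cdh5 averaged 36.1 CPM in vnx_d7 and 39.6 CPM in flx_d7, against 31.9 CPM in con_d7. Pecam1 averaged 7.44 CPM in vnx_d7 and 7.17 CPM in flx_d7, against 5.59 CPM in con_d7, and Kdr 5.08 CPM in vnx_d7 and 5.8 CPM in flx_d7, against 4.85 CPM in con_d7. Most of the oligodendrocyte lineage sum on day 7 was Pdgfra, a growth factor receptor, with 172 CPM in vnx_d7, against 219 CPM in con_d7. The part of these shifts in the changes of the pump genes was not tested. Of 5 macrophage or microglia genes, 3 were under 1 CPM in every library, the leucocyte gene Ptprc and the microglial genes Cx3cr1 and Aif1. The sums of the 5 were 7.54, 9.91 and 12.4 in vnx_d13, against 3.8, 5.55 and 8.69 in con_d13. Csf1r averaged 5.74 CPM in vnx_d13, against 2.77 CPM in con_d13, and Cd68 4.17 CPM in vnx_d13, against 3.32 CPM in con_d13. Of 3 osteoclast genes, 1, Ocstamp, was under 1 CPM in every library, and Acp5 averaged 7.85 CPM in vnx_d7, against 7.84 CPM in con_d7.

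Set beside the promoters, the 3 genes with CACGTG had log2 fold changes of 0.34, 0.21 and 0.14 in vnx_d7 against con_d7 (Atp6v0b, Atp6v0d1 and Atp6v1a). The 4 genes with a window but no core had 0.29, 0.14, 0.17 and 0.27 (Atp6ap2, Atp6ap1, Atp6v0a1 and Atp6v0c, the last not called). The ranges of these values overlap.

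Other subunit genes gave fewer calls. Of the 10 further subunit genes tested, 2 rose in vnx_d7 against con_d7: Atp6v1d, of the rotor (0.24 ± 0.0572, adjusted p = 0.0149), and Atp6v1g1, of the peripheral stalk (0.18 ± 0.0444, adjusted p = 0.0214). Their median was 0.115, and 0 fell, where 3.84% of all genes were called and 1.9% were called higher. In vnx_d13 against con_d13 3 fell, Atp6v1e1 (-0.19 ± 0.0409), Atp6v0e2 (-0.16 ± 0.0431) and Atp6v1d (-0.09 ± 0.0298), while Tcirg1 rose (0.25 ± 0.08, adjusted p = 0.0308). Of all genes 22.9% were called there, 11.3% as lower. The venlafaxine effect on day 13 was below that on day 7 for Atp6v1d, Atp6v1g1 and Atp6v1e1. With fluoxetine edgeR called 0 of these 10 on either day. Unadjusted p was under 0.05 for 5 on day 7 and 2 on day 13, against 9.13% and 14.1% of all genes.

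Genes that act on the pump or beside it were taken from 3 further lists. In vnx_d7 against con_d7 3.84% of all genes were called, 1.9% as higher. Of 10 tested genes for assembly and regulation 1 rose in vnx_d7 against con_d7, Dmxl2, a part of the RAVE-like complex that rejoins the sectors (0.14 ± 0.0393, adjusted p = 0.0397). Of 19 genes for the TFEB family and nutrient sensing at the lysosome 6 rose and 0 fell. They included the folliculin gene Flcn (0.31 ± 0.037, adjusted p = 8.43e-06) and its partner genes Fnip1 (0.37 ± 0.0436, adjusted p = 7.17e-06) and Fnip2 (0.25 ± 0.0557). These proteins act on the Rag GTPases, whose gene Rragc also rose (0.19 ± 0.0343). Tfec rose by 0.78 ± 0.176 from a low level, with 2.61 CPM in vnx_d7 and 1.52 in con_d7, and Lamtor1 by 0.16 ± 0.0465. Tfeb, Tfe3 and Mitf did not pass, at 0.24 ± 0.183, -0.09 ± 0.045 and -0.15 ± 0.115. Of 12 tested channel and transporter genes 4 rose, the calcium channel gene Mcoln1 (0.24 ± 0.0378, adjusted p = 0.000302), the chloride transporter genes Clcn7 (0.23 ± 0.0392) and Clcn6 (0.23 ± 0.0548), and Ostm1, the partner of Clcn7 (0.16 ± 0.0414).

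In vnx_d13 against con_d13, where 22.9% of all genes were called, these lists held few calls. Tested were 10 assembly, 18 nutrient-sensing and 13 transporter genes. Rogdi and Ncoa7 of the assembly list fell (-0.17 ± 0.0426 and -0.23 ± 0.0784), Slc38a9, an arginine sensor gene, fell (-0.13 ± 0.0441), and of the transporters Clcn4 (-0.20 ± 0.0536) fell while Tpcn1 rose (0.25 ± 0.0614). The difference between the venlafaxine effects, day 13 minus day 7, was called lower for 4.89% of all genes. It was called lower for 3 of 10 assembly genes tested. The same held for 4 of 19 nutrient-sensing genes, including Flcn (-0.24 ± 0.0494) and Fnip1 (-0.30 ± 0.0626). Of 13 transporter genes 6 were called lower, including Mcoln1 (-0.29 ± 0.0505). For fluoxetine edgeR called 0 genes of these 3 lists on either day. On day 7 unadjusted p was under 0.05 for 2 of 10 assembly, 4 of 19 nutrient-sensing and 3 of 12 transporter genes. The share over all genes was 9.13%. On day 13 the counts were 1 of 10, 2 of 18 and 4 of 13, against 14.1% of all genes.

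Averaged over all 10 genes, the log2 profile around each gene's mean was -0.24 in con_d0. It was -0.17, -0.08 and -0.29 in flx_d7, vnx_d7 and con_d7, and 0.26, 0.19 and 0.33 in flx_d13, vnx_d13 and con_d13. Distances from this profile were ranked only for genes of at least 10 CPM, which left out Atp6v0c. Of the other 9 pump genes Atp6ap2 lay closest, with a root mean square difference of 0.0742 on the log2 scale over 7 group means. Atp6v0a1 lay farthest of these at 0.563. Of 10744 genes of at least 10 CPM, those most like the profile outside the pump were Commd9 (0.0296), Zfand2a (0.0373), Zbtb6 (0.0429), Lmbrd2 (0.0451) and Dgkq (0.0456).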

How the data were processed

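The authors deposited raw counts for every gene in 49 libraries. Per the labels' protocols these came from polyA RNA and stranded Illumina TruSeq libraries. Per the submitters' processing notes, the tools were featureCounts 1.6.1, STAR 2.6.0b, FastQC 0.11.5 and bcl2fastq 2.19.0.316, with GRCm38.p6. The annotation release, strand setting and handling of multi-gene reads were not given in the sources used here. Of 8 samples per condition that the labels state, 7 were analysed here.

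Counts were tested over the whole table by the robust quasi-likelihood F test of edgeR 4.0.16 under R 4.3.3, after TMM scaling and filterByExpr by group, with Benjamini-Hochberg adjustment. CPM values were computed from these counts. Groups fitted together were the 3 of a day, the 3 of the controls, or the 42 libraries of days 7 and 13 for differences between days. Each standard error is the log2 fold change over the square root of F. Alternatives were DESeq2 1.42.0, its size factors in edgeR, no filter, a replicate block, the compared libraries alone, all 49 libraries, and libraries left out. Exon lengths, over all annotated exons of a gene joined, came from GENCODE vM21 and promoters from RefSeq. Scripts were tested on simulated data.

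The 10 genes are counted in every comparison, but not all are named with values in each. Of each other list up to 4 called genes with the smallest p are named. The exception is the nutrient-sensing list in vnx_d7 against con_d7, where all 6 called genes are named. A called gene of the transporter list is not reported here. Further genes named for a small count or an isoform comparison were chosen after their values were seen. Genes and lists were chosen with earlier results of these data known.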

Additional observations from a re-analysis of the deposited data

Results flagged for a closer look

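The difference between the venlafaxine effects on the 2 days, day 13 minus day 7, passed its own edgeR test in 9 of the 10 genes, each above its control on day 7 and below it on day 13 in the means. The log2 differences were -0.44 ± 0.0674 for Atp6v0b, -0.42 ± 0.0643 for Atp6ap2, -0.37 ± 0.0797 for Atp6v0a1, -0.36 ± 0.0738 for Atp6v1h, -0.31 ± 0.053 for Atp6v0d1, -0.30 ± 0.0577 for Atp6v1b2, -0.30 ± 0.0529 for Atp6v1a, -0.27 ± 0.0405 for Atp6ap1 and -0.25 ± 0.0485 for Atp6v1c1. Their adjusted p ran from 3.82e-05 for Atp6ap1 to 0.00256 for Atp6v0a1.

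Atp6v1h in vnx_d13 had 1 library far from the others, vnx_d13_1, with 107 CPM against 117 to 122 in the other 6. On the log2 CPM scale its gap was 0.659 of the range of the group, above the limit of 0.568 for 7 values. In all 70 groups of 7 values were examined on that scale, and chance gives such a gap in about 1 in 20. Vnx_d13_1 is also among the 6 libraries set apart.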

How the results depend on the processing

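Counts of pump genes called in venlafaxine on day 7 (8), in the venlafaxine difference between days (9) and in the untreated comparisons (7, 9 and 9) stayed within 1.5 times of these values under every alternative run. In flx_d7 against con_d7 the count of 1 became 0 with no filter and without the 6 libraries set apart, and 2 with DESeq2. In flx_d7 against vnx_d7 it was 2 with DESeq2, against 0. In vnx_d13 against con_d13 the 7 became 4 with no filter and 4 with the compared groups alone. In flx_d13 against vnx_d13 the 1 became 0 with no filter and without the 6 libraries, and 2 with DESeq2. The fluoxetine difference between days, 0 in edgeR, was 3 with DESeq2, 1 with fluoxetine and control libraries alone and 2 with all 49. No cause of these shifts was tested. Over all genes, the 8 calls in flx_d7 against con_d7 ranged from 5 to 57 across alternatives, the 599 in vnx_d7 from 290 to 850, the 19 in flx_d13 from 0 to 575 and the 3753 in vnx_d13 from 282 to 5164, so the background shares move with these choices. The 23 in flx_d7 against vnx_d7 ranged from 8 to 112, the 1986 in flx_d13 against vnx_d13 from 176 to 3467, and the differences between days from 4 to 181 (47) for fluoxetine and from 1186 to 2587 (2107) for venlafaxine.

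Signs turned only for genes that were not called. Without the 6 libraries Atp6v0c stood at 0.02 in flx_d13 and 0.02 in vnx_d13, and without flx_d13_5, flx_d13_6 and flx_d13_7 Atp6ap1 and Atp6v0d1 stood at 0.02 and 0.02 in flx_d13. In con_d13 against con_d0 Atp6v1a was at 0.01 with DESeq2 size factors, 0.02 with no filter and 0.01 with DESeq2.

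With the replicate number as a block, the counts were 0 in flx_d7 against con_d7, 0 in vnx_d13 against con_d13 and 0 in flx_d13 against vnx_d13, and 6 in vnx_d7 against con_d7. Taken over all groups the numbers did not pair the libraries: over 129 same-numbered pairs the deviations correlated at a median of 0.00259 (range -0.464 to 0.242), against -0.000536 for other pairs. Single pairs of groups departed from this. The same-numbered median was -0.24 between con_d13 and vnx_d13, against 0.0313 for other pairs. It was -0.186 against 0.0378 between con_d13 and flx_d13, and 0.115 against -0.00829 between flx_d13 and vnx_d13. Between con_d7 and flx_d7 it was -0.104 against 0.0158. Atp6v0c, at 58 to 152 counts per library, is the gene whose depth limits its error most.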
